A study of Mus musculus with 3 samples.

Results

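Potassium channel genes were described across the cell types of the mouse lacrimal gland in 3 single-nucleus RNA libraries. The members were all genes whose symbol starts with Kcn, without the long noncoding transcript Kcnq1ot1, that held at least 100 unique molecular identifiers (UMIs, each a counted RNA molecule) over the 3 libraries. This left 34 of 98 Kcn symbols among 32285 genes, while 64 fell under the minimum, 9 of them with 0 UMIs. Just inside the minimum were Kcnmb4 with 100 UMIs and Kcnip2 with 104, and Kcnn3 with 82 was among those just outside it.

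The libraries held nuclei from normal glands (control), from glands of a dry eye model made with scopolamine, a blocker of muscarinic acetylcholine receptors, together with dry stress (scopolamine), and from the same model treated with tamsulosin, an alpha-1 adrenergic blocker (tamsulosin). Each group was 1 library, so no difference between groups could be tested against the spread between animals. The strain, genotype, age, number of animals, doses and times are not given in the sources used here. The droplet method was the 10x 3' kit, and the protocol also speaks of sorting RFP+ nuclei, without saying whether that step applied to these libraries.

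Potassium channels set the resting membrane potential and return it there after excitation. In fluid-secreting glands a rise of calcium in acinar cells opens apical chloride channels and calcium-activated potassium channels together, and the potassium current keeps the driving force for chloride exit. Muscarinic receptors raise that calcium, and duct cells then alter the primary fluid by secreting potassium. Other members of the family do their work in contractile, immune and connective tissue cells.

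Most subunits that form the pore share a signature stretch in the selectivity filter, the narrow part that passes potassium and holds back sodium. It is shown because none of the auxiliary members, which modify a pore and do not form one, carries it. The motif searched was 5 codons read in frame on the coding strand only: a threonine codon, a codon with T in its middle, a glycine codon, a codon that starts with T, and a glycine codon. It was found in 19 of 34 members against 187 of 21584 coding genes (0.866%). It was found in 4 of 5 calcium- or sodium-activated subunits, 8 of 11 voltage-gated subunits, 4 of 4 inward rectifiers and 3 of 4 tandem-pore subunits, and in 0 of 9 auxiliary genes and 0 of 1 BK beta subunits. The 7 windows below are from GENCODE transcripts on GRCm38 (mm10), each of 45 bases within 1 coding exon, with the motif in capitals. They belong to genes that the results turn on, from the acinar-like (Kcnma1, Kcnn4, Kcnb2), duct-like (Kcnj15, Kcnj16), fibroblast-like (Kcnt2) and macrophage-like (Kcnk13) nuclei.
Kcnma1, exon 8, chr14:23528398-23528442, minus strand: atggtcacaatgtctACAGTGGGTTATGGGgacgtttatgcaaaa
Kcnn4, exon 4, chr7:24379183-24379227, plus strand: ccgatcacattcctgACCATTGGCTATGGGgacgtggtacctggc
Kcnb2, exon 3, chr1:15710031-15710075, plus strand: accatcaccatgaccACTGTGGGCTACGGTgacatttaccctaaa
Kcnj15, exon 4, chr16:95295965-95296009, plus strand: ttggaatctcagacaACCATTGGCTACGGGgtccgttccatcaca
Kcnj16, exon 3, chr11:111024889-111024933, plus strand: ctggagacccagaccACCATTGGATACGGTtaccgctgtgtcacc
Kcnt2, exon 9, chr1:140425263-140425307, plus strand: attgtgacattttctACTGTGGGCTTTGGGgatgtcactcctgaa
Kcnk13, exon 3, chr12:100061361-100061405, plus strand: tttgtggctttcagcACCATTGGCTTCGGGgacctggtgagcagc
The window of Kcnk13 is the later of its 2 matches. The pore-forming members with no match were Kcnn2, Kcnh1, Kcnh7, Kcnh8 and Kcnk1, which says only that these letters are not in their coding sequence.

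The libraries held 7253 control, 10024 scopolamine and 12322 tamsulosin barcodes with 33500727, 35237256 and 57969348 UMIs, of which 6780, 9205 and 10864 nuclei were kept at medians of 2247, 1650 and 3209.5 UMIs. Between 22 and 35 barcode sequences were shared by each pair of libraries. Nuclei were clustered without any Kcn gene, and clusters were called "-like" from marker lists. Acinar-like nuclei numbered 3240, 2696 and 2422 (control, scopolamine and tamsulosin, the order used throughout), and myoepithelial-like, fibroblast-like and macrophage-like nuclei between 191 and 491 in each library. Duct-like nuclei numbered 9, 557 and 2831, so that no duct-like comparison with the control was made. The control count depends on the clustering and naming. With doublets kept a duct-like cluster held 145 control nuclei, and with at least 1600 UMIs duct-like clusters held 224 and 135. Unnamed clusters held 38.2%, 41.5% and 5.41% of the nuclei, and low-complexity barcodes, with many UMIs from few genes, 0.605%, 6.52% and 30.4%. The libraries stood apart in clustering: most acinar-like, duct-like and myoepithelial-like clusters came mainly from 1 library, so a cluster and its library cannot be told apart. RNA of acinar type reached every class: the acinar marker list, 25 of 26 genes measured, summed to 12573, 19788 and 25057 CPM (UMIs scaled to the same total in each class and library) in acinar-like nuclei and to 9016, 15537 and 23904 CPM in macrophage-like nuclei. It was higher than in acinar-like nuclei in myoepithelial-like nuclei of every library (13050, 22212 and 30635 CPM) and in duct-like nuclei of the tamsulosin library (27202 CPM). The muscarinic receptor gene Chrm3 was likewise at 2306, 1276 and 523 CPM in macrophage-like nuclei. The macrophage marker list, in contrast, summed to 4496, 4730 and 4228 CPM in macrophage-like and 157, 128 and 120 CPM in acinar-like nuclei. The acinar-like name is accordingly weak, and levels in macrophage-like nuclei are given beside acinar-like levels for comparison. Levels are CPM of summed UMIs, intervals are exact 95% intervals (Poisson for levels, Clopper-Pearson for shares, conditional binomial for ratios), and all of them cover counting error only. Nuclear UMIs include introns and grow with gene length, so levels are compared between classes and libraries and not between genes.

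To see how the family divides between cell types, the members were grouped by role. The 5 calcium- or sodium-activated members held 409782 UMIs, the 11 voltage-gated members 24331, the 4 tandem-pore members 11458, the 9 auxiliary members 6905, the 4 inward rectifiers 5415 and the BK beta subunit 100. Among classes with at least 50 nuclei, leaving out salivary-type, low-complexity and unnamed nuclei, 8 of 34 members were highest in the same class in all 3 libraries, among them Kcnma1, Kcnn2 and Kcnb2 in acinar-like, Kcnh1 in myoepithelial-like, Kcnt2 in fibroblast-like, and Kcnk13 and Kcnk6 in macrophage-like nuclei. Among the 5 classes with enough nuclei in every library this held for 18 of 34. The scopolamine and tamsulosin libraries both have duct-like and endothelial-like nuclei. Between them it held for 23 of 34, with 9 of these highest in duct-like nuclei. The share of all genes under the same rule is not given here, so these counts are not read as particular to the family.

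**Figure D1:**
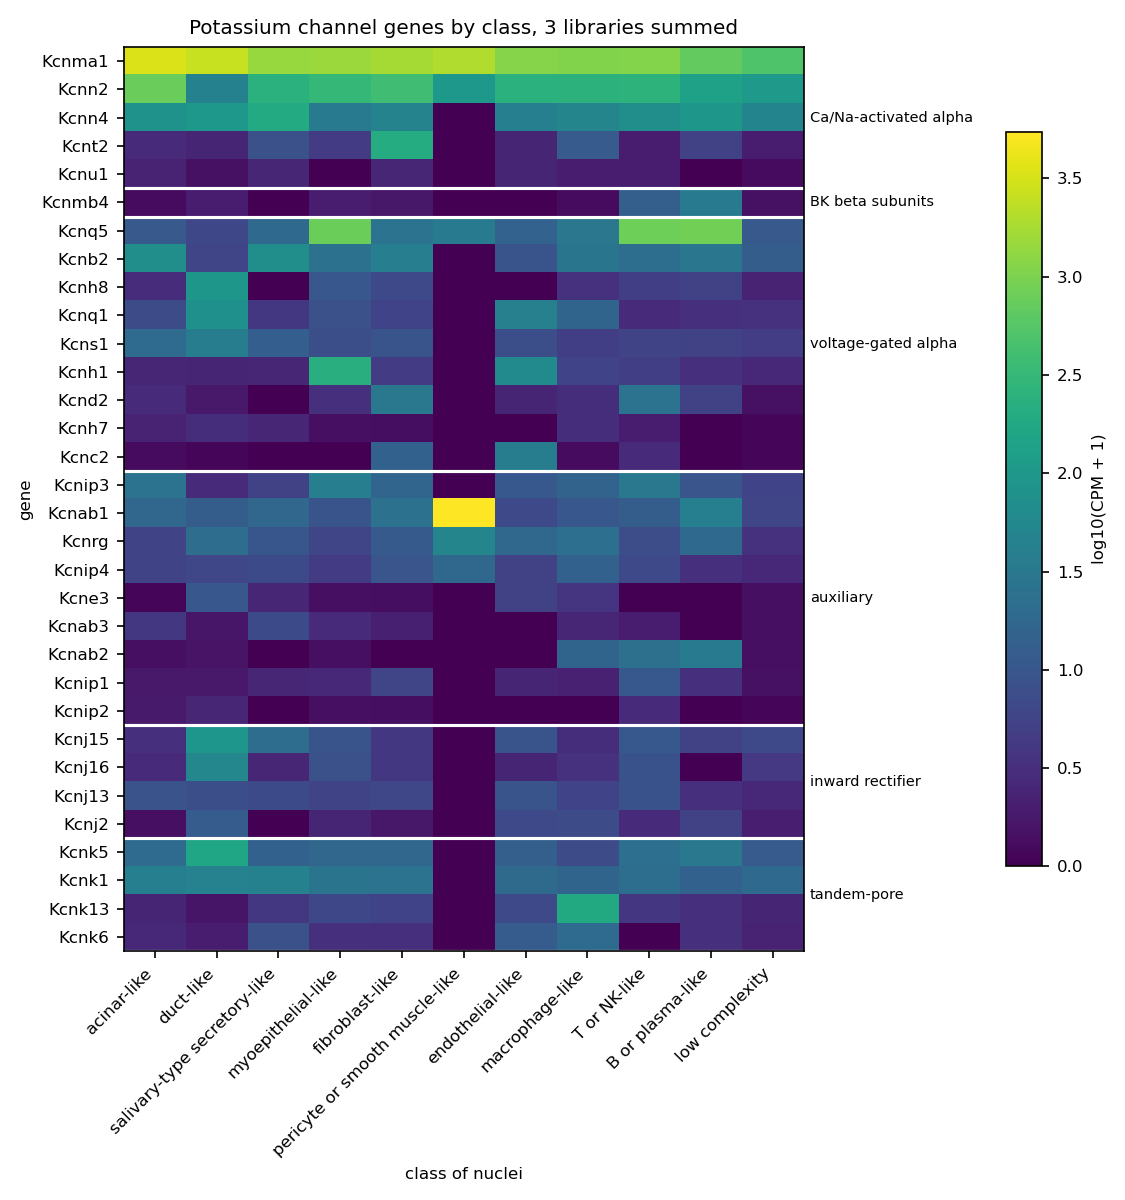
Level of 32 potassium channel genes, ordered by role (right), in 11 classes of nuclei, as log10(CPM + 1) of the UMIs of 3 libraries summed. Kcnma1 is high in every class, while Kcnh1 in myoepithelial-like, Kcnq5 in myoepithelial-like and both lymphoid classes, Kcnt2 in fibroblast-like, Kcnk13 in macrophage-like and Kcnab1 in pericyte or smooth muscle-like nuclei stand out from the other classes.

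Kcnma1 (chr14:23289431-24014491, minus strand) encodes the pore of the BK channel, opened by calcium and depolarisation together, and is the member with most UMIs, 338839 over the 3 libraries. In acinar-like nuclei it was at 3766 (3740 to 3792), 3665 (3632 to 3697) and 2891 (2864 to 2919) CPM, and these nuclei held 57.6% of its UMIs in kept nuclei, the base of every such share below. It was at 2725 and 2683 CPM in duct-like nuclei of the scopolamine and tamsulosin libraries. Acinar-like and duct-like nuclei thus both carried Kcnma1, with the acinar-like class level the higher in either library. Single clusters with high duct markers went both ways against the largest acinar-like cluster of their library. Kcnma1 was higher in control cluster 22 (unnamed, 4487 against 3794 CPM) and tamsulosin cluster 17 (3315 against 2989 CPM). It was lower in scopolamine cluster 26 (1966 against 3772 CPM) and tamsulosin cluster 16 (2231 CPM). In macrophage-like nuclei it was at 2112, 1113 and 448 CPM, and in T or NK-like nuclei at 2087, 1362 and 555 CPM. The ratio of the acinar-like to the macrophage-like level was smallest in the control library and largest in the tamsulosin library. Thinned to 1000 UMIs a nucleus, 96.1%, 93.5% and 87.8% of acinar-like nuclei had a Kcnma1 UMI (99.8%, 97.7% and 97.8% before thinning) against 86.2%, 54.6% and 28.0% of macrophage-like nuclei (97.3%, 71.9% and 50.8% before thinning). Thinning left out 47 acinar-like and 17 macrophage-like nuclei, all of the scopolamine library. Median depths were 3510.5, 3438 and 4344 UMIs in acinar-like and 2391, 1831 and 2451 UMIs in macrophage-like nuclei.

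Kcnn2, a small-conductance channel opened by calcium through bound calmodulin, was at 927 (914 to 940), 696 (682 to 710) and 561 (549 to 574) CPM in acinar-like nuclei. In duct-like nuclei it was at 124 (108 to 142) and 32.4 (29.5 to 35.6) CPM in the scopolamine and tamsulosin libraries. Kcnn2 therefore divided the epithelial classes more sharply than Kcnma1. The latter was also lower in duct-like nuclei as a class, though not in every cluster. The ratio of Kcnma1 to Kcnn2 UMIs was 4.06 (4.00 to 4.13), 5.27 (5.15 to 5.38) and 5.15 (5.03 to 5.27) in acinar-like nuclei and 21.9 (19.2 to 25.2) and 82.7 (75.3 to 91.0) in duct-like nuclei. In macrophage-like nuclei it was 3.76, 4.70 and 5.12, in T or NK-like nuclei 3.17, 5.65 and 4.95, and in low-complexity barcodes of the scopolamine and tamsulosin libraries 4.52 and 5.27. In the tamsulosin library it was higher than the acinar-like value in myoepithelial-like nuclei (10.1, 7.63 to 13.5) and unnamed nuclei (9.64, 9.11 to 10.2), while fibroblast-like (6.59, 5.26 to 8.34) and endothelial-like nuclei (7.53, 5.13 to 11.4) had intervals that began near it. The part of free RNA in Kcnma1 and Kcnn2 outside acinar-like and duct-like nuclei was not tested. Thinned, 56.9%, 41.2% and 32.2% of acinar-like nuclei had a Kcnn2 UMI, against 12.8% and 3.32% of duct-like nuclei and 8.59% and 12.4% of low-complexity barcodes.

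**Figure D2:**
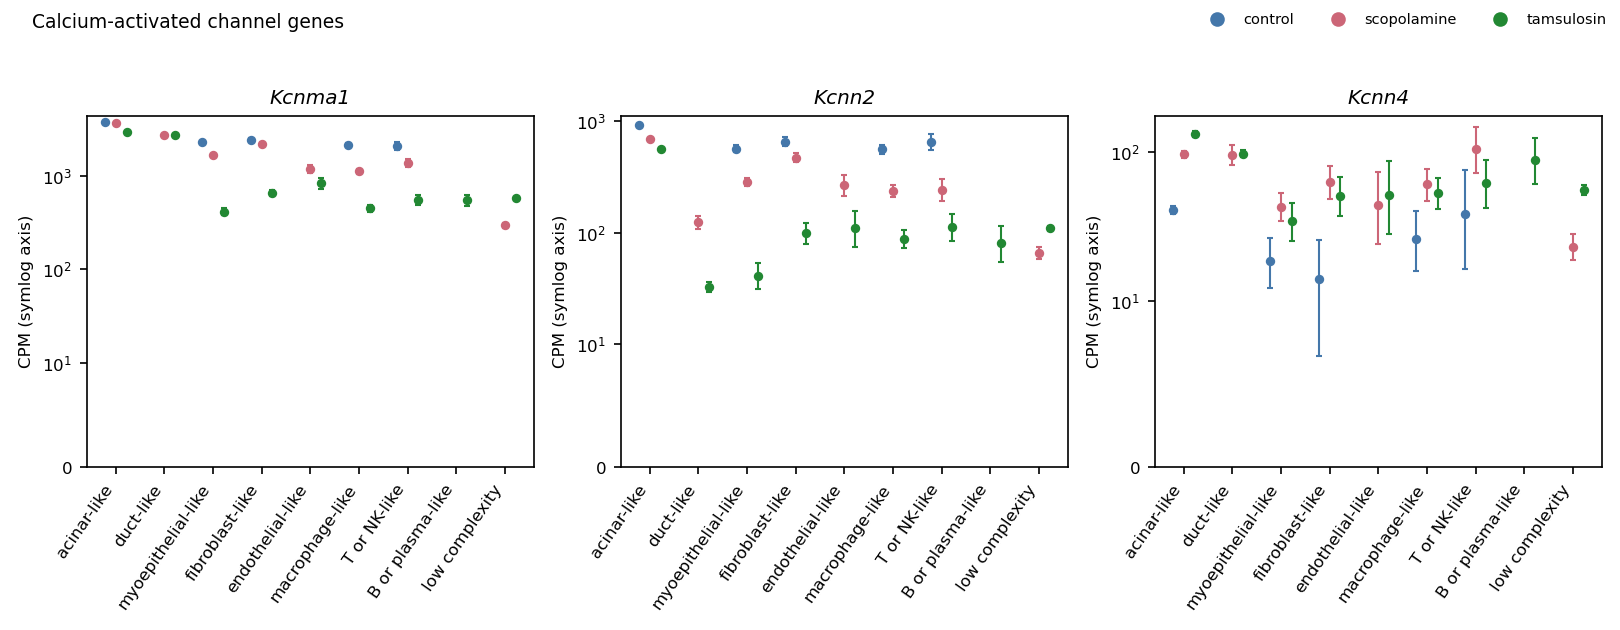
CPM of Kcnma1, Kcnn2 and Kcnn4 by class and library, on an axis that is linear below 10 and logarithmic above, for groups of at least 50 nuclei. Points are summed UMIs of 1 library with exact 95% Poisson intervals. Kcnn2 shows a larger drop from acinar-like to duct-like nuclei (696 to 124 CPM in the scopolamine library) than Kcnma1 does.

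Kcnn4 (chr7:24370263-24386690, plus strand), the intermediate-conductance calcium-activated channel known from salivary acinar cells, red cells and lymphocytes, was at 40.7 (38.0 to 43.5), 95.7 (90.6 to 101) and 132 (126 to 138) CPM in acinar-like nuclei. It was at 94.9 and 96.7 CPM in duct-like nuclei of the scopolamine and tamsulosin libraries, and at 204 (170 to 243) CPM in the 198 salivary-type secretory-like nuclei of the tamsulosin library. In macrophage-like nuclei it was at 26 (15.9 to 40.1), 60.3 (46.8 to 76.4) and 52.8 (41.4 to 66.4) CPM. In T or NK-like nuclei it was at 38.1 (16.5 to 75.1), 104 (71.9 to 145) and 62.1 (42.2 to 88.2) CPM, with the scopolamine value not below the acinar-like one. The control library was lowest in all 3 classes. Thinned, 6.23%, 11.4% and 14.0% of acinar-like nuclei had a Kcnn4 UMI, against 1.92%, 3.80% and 5.08% of macrophage-like nuclei.

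Kcnn4 differed within the acinar-like class. In each library 1 smaller acinar-like cluster had Kit and Car6 among its top genes (numbers 11, 12 and 8, of 434, 427 and 606 nuclei) and held Kcnn4 at 363 (330 to 398), 317 (280 to 356) and 247 (224 to 272) CPM. The largest acinar-like cluster of each library (numbers 3, 6 and 5, of 2175, 1973 and 1793 nuclei) held it at 18.7 (16.7 to 20.9), 79.0 (74.0 to 84.2) and 117 (111 to 123) CPM. These clusters were chosen for display after their values were seen. The Kit and Car6 clusters were higher by 19.4-fold (16.7 to 22.5), 4.01-fold (3.49 to 4.59) and 2.11-fold (1.89 to 2.36). From control to scopolamine the largest cluster was 4.23-fold higher (3.71 to 4.83) and the Kit and Car6 cluster at a ratio of 0.873 (0.749 to 1.02). The control level of Kcnn4 in the largest cluster lay within the interval of macrophage-like nuclei of that library, and the part of free RNA in it was not tested. Other members ran the opposite way in the Kit and Car6 clusters. Kcnip3, a calcium-binding protein of the KChIP family, was at 5.77, 4.57 and 2.41 CPM there against 27.6, 25.7 and 32.0 CPM in the largest clusters. Kcnb2 was at 29.7, 24 and 10.2 CPM against 67.2, 68.5 and 88.6 CPM, and Kcnn2 at 694, 276 and 109 CPM against 958, 738 and 616 CPM. Kcnma1 had ratios of 0.957, 0.760 and 0.646, and the tandem-pore member Kcnk1 ratios of 1.04, 0.801 and 1.02 with intervals that all held 1.

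Of the remaining calcium- or sodium-activated members, the sperm channel gene Kcnu1 stayed at or under 4.76 CPM in every class of at least 50 nuclei, and Kcnt2 is given with the fibroblast-like nuclei. The BK beta subunit Kcnmb4, which slows BK gating, had 10 UMIs (20 CPM) in T or NK-like and 9 UMIs (24 CPM) in B or plasma-like nuclei of the tamsulosin library and at most 6.11 CPM in every other class of at least 50 nuclei. Lrrc26, the gamma subunit that lets BK channels open near the resting potential of secretory cells, was at 7.43, 20.2 and 26.6 CPM in acinar-like nuclei and reached 28.2 and 69.7 CPM in duct-like nuclei. In macrophage-like nuclei Lrrc26 was at 6.50, 12.4 and 23.9 CPM, near the acinar-like levels.

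Among voltage-gated subunits, Kcnb2 (chr1:15287254-15723750, plus strand), a delayed rectifier of the Kv2 group, was highest in acinar-like and salivary-type secretory-like nuclei. In acinar-like nuclei it was at 63.5 (60.2 to 67.0), 64.1 (59.9 to 68.5) and 81.0 (76.5 to 85.7) CPM, with 67.1% of its UMIs. In duct-like nuclei of the scopolamine and tamsulosin libraries it was at 5.08 (2.33 to 9.65) and 4.76 (3.67 to 6.07) CPM. Salivary-type secretory-like nuclei were at 70.0 (51.4 to 93.1) CPM over the 3 libraries, level with the 68.9 CPM of acinar-like nuclei, and unnamed nuclei at 59.2 CPM. Macrophage-like nuclei were at 44.2, 25.7 and 19.5 CPM. Other members higher in acinar-like nuclei than in all other nuclei were Kcnn2 (2.82-fold), Kcnab3, a beta subunit of Kv channels (2.66-fold, 3.86, 2.61 and 2.17 CPM), and Kcnip3 (2.25-fold). Kcns1, a Kv subunit that is silent alone and modifies Kv2 channels, was at 26.3, 16.7 and 10.4 CPM in acinar-like nuclei but at 29.9 and 36.5 CPM in duct-like nuclei. Kcnb2 and Kcns1 thus did not follow each other across the epithelial classes.

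Duct-like nuclei carried another set of members. Relative to all other nuclei they were higher in Kcne3 (17.4-fold, 9.18 CPM over the 3 libraries), a single-pass subunit that holds Kcnq1 channels open, Kcnj15 (15.5-fold, 91.5 CPM) and Kcnj16 (8.69-fold, 52.9 CPM), inward rectifiers of transporting epithelia, and Kcnh8 (13.7-fold, 93.8 CPM), an Elk-type voltage-gated channel. Kcnj2 (8.81-fold, 11.1 CPM), a strong inward rectifier, Kcnq1 (7.78-fold, 73.2 CPM), a slow channel of many epithelia, Kcnk5 (7.41-fold, 162 CPM), a tandem-pore channel sensitive to external pH, and Kcnrg (3.5-fold, 20.4 CPM), a cytoplasmic regulator of Kv channels, followed. Kcnrg was as high in macrophage-like nuclei, at 21.9 CPM, and was highest there in the control and tamsulosin libraries. Since 9 control nuclei were duct-like, the control library was read from unnamed cluster 22, of 354 control nuclei, whose duct markers were also high. There Kcnj15 was at 57.8 (46.9 to 70.5), Kcnj16 at 43.7, Kcnh8 at 114, Kcnq1 at 119 and Kcnk5 at 142 CPM. Kcnj15, Kcnj16, Kcnh8, Kcnq1 and Kcnk5 were thus high in a cluster of each library. Kcne3, Kcnj2 and Kcnrg had only 11, 51 and 52 UMIs in the whole control library. The folds over all other nuclei rest mostly on the tamsulosin library, with 13658112 duct-like UMIs against 1769965 in scopolamine. Class and library are therefore mixed in those folds. Kcnh8 was set against the largest acinar-like cluster of the same library. It was 88.9-fold higher in cluster 22 (56.6 to 147). It was 155-fold higher in scopolamine cluster 26 (92.8 to 276) and 137-fold in tamsulosin cluster 16 (81.4 to 252). Kcnj15 was 85.8-fold, 136-fold and 28.6-fold higher in the same order, and Kcnk5 9.17-fold, 10.8-fold and 10.4-fold. The acinar-like side held only 21, 16 and 14 UMIs of Kcnh8 and 11, 16 and 44 of Kcnj15. Clusters 26 and 16 have members among their top genes (Kcnj16, Kcnq1 and Kcnj15, and Kcnh8), so they are duct-like clusters where these genes are high. In duct-like cluster 17 Kcnh8 was at 18.5 CPM, against 152 CPM in cluster 16, and cluster 30 was also low, as given below. Kcnn2 was lower in clusters 22, 26 and 16, at ratios of 0.337, 0.163 and 0.0500. Kcnma1 had ratios of 1.18, 0.521 and 0.746 there.

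The duct-type clusters of a library were not alike. In the scopolamine library cluster 26 (267 nuclei) held Kcnj16 at 275 (242 to 312) CPM and cluster 30 (205 nuclei) at 3.58 CPM, while Kcnk5 was at 223 and 113 CPM. In the tamsulosin library cluster 16 (1106 nuclei) held Kcnj16 at 64.7 CPM and cluster 17 (1136 nuclei) at 4.67 CPM, a ratio of 0.0722 for cluster 17. The same pair gave 0.0889 for Kcne3, 0.121 for Kcnh8, 0.266 for Kcnq1 and 0.530 for Kcnj15. Kcnk5 at 0.619, Kcnn4 at 1.40 and Kcnma1 at 1.49 differed less. Kcnh8 was at 211 and 5.38 CPM and Kcnq1 at 183 and 5.38 CPM in scopolamine clusters 26 and 30. Kcnj16, Kcnh8 and Kcnq1 thus differed more between the duct-type clusters of either library than Kcnk5 did. Greb1l was among the top genes of clusters 30 and 17, and Chst9 of clusters 26 and 16. Cluster 19 (547 tamsulosin nuclei, with Ltf, Dmbt1 and Wfdc2 among its top genes) was at 117 CPM for Kcnj15, 95.6 CPM for Kcnh8 and 189 CPM for Kcnk5. Kcnj16 was highest, at 518 (415 to 639) CPM, in unnamed cluster 41, which has 59 scopolamine nuclei and in the same library also holds Kcnh1 at 506 CPM.

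**Figure D3:**
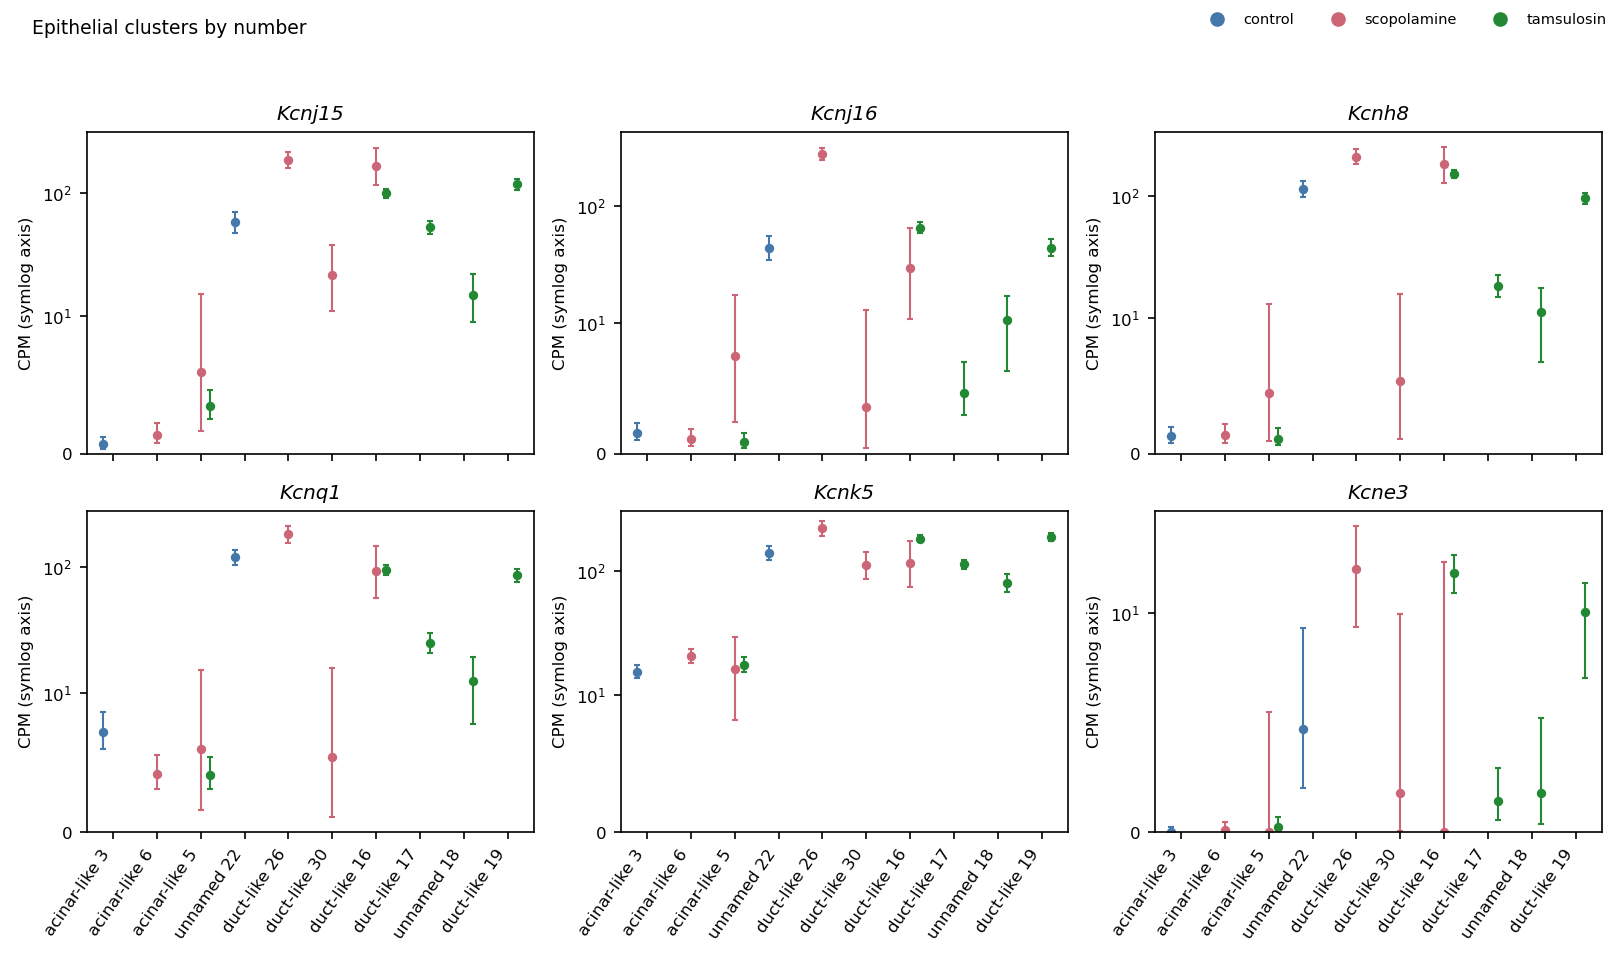
CPM of Kcnj15, Kcnj16, Kcnh8, Kcnq1, Kcnk5 and Kcne3 in the largest acinar-like cluster of each library and in duct-type clusters, for groups of at least 50 nuclei, with exact 95% Poisson intervals on an axis linear below 10. Scopolamine cluster 26 and tamsulosin cluster 16 hold Kcnj16 at 275 and 64.7 CPM, while clusters 30 and 17 fall to 3.58 and 4.67 CPM and keep Kcnk5 above 100 CPM.

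Transport genes that act with these channels were also highest in duct-like nuclei. Slc12a2, the cotransporter that loads chloride into secretory cells, was at 1151 and 1627 CPM in duct-like nuclei against 44.7, 39.7 and 102 CPM in acinar-like nuclei. Slc12a2 is itself on the acinar marker list, as is Ltf, a top gene of duct-like cluster 19. These markers thus went against the class names. Atp1b1, a beta subunit of the sodium pump that restores potassium, was at 146 and 217 CPM in duct-like nuclei. In acinar-like nuclei Atp1b1 was at 3.72, 5.68 and 21.3 CPM. The calcium-activated chloride channel Ano1 was at 586 and 692 CPM in duct-like nuclei, above the 181, 162 and 150 CPM in acinar-like nuclei. Dpp6, a partner of Kv4 channels, was at 75.7 and 88.4 CPM in duct-like nuclei, while the Kv4 member Kcnd2 was at 0.565 and 0.805 CPM there. Kcnk1, a weakly conducting tandem-pore channel, was near even across the epithelium, at 35.8, 44.2 and 41.8 CPM in acinar-like nuclei, then 45.2 and 43.8 CPM in duct-like nuclei.

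Myoepithelial cells contract around the acini and expel fluid. Myoepithelial-like nuclei were higher than all other nuclei in Kcnh1, an Eag-type voltage-gated channel (55.6-fold, with 72.0% of its UMIs), in Kcnq5, a subunit of the slow M current (29.7-fold), and in Kcnip3 (2.29-fold). Kcnh1 was at 177 (156 to 199), 240 (219 to 262) and 261 (234 to 289) CPM, and Kcnq5 at 807 (763 to 854), 804 (766 to 844) and 777 (731 to 825) CPM. Over the whole class the intervals of the 3 libraries overlapped for Kcnq5, while for Kcnh1 the control lay below the others. Kcnip3 was at 47.4, 41.1 and 25.5 CPM. After thinning, 19.7%, 21.3% and 18.9% of these nuclei had a Kcnh1 UMI and 52.7%, 53.9% and 45.1% a Kcnq5 UMI. Cluster 37 (83, 67 and 2 nuclei) was called myoepithelial-like but held Kcnma1 at 3328 CPM and Kcnb2 at 78.8 CPM in the control library, both at acinar-like levels, and Kcnq5 at 226 CPM. The main myoepithelial-like cluster of each library (numbers 34, 24 and 23) held Kcnq5 at 1348, 1087 and 772 CPM and Kcnma1 at 1360, 598 and 323 CPM. Kcnh1 was at 281, 327 and 266 CPM in the same clusters. Between these clusters Kcnq5 thus fell from library to library, and the control was not the lowest for Kcnh1.

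Kcnq5 was also high in lymphoid nuclei relative to the other classes. It was at 810 (693 to 941), 843 (746 to 949) and 789 (713 to 871) CPM in T or NK-like nuclei and at 870 (778 to 970) CPM in B or plasma-like nuclei of the tamsulosin library. The level did not differ between libraries beyond counting error, and it lay far above the 28.4 and 28.9 CPM of macrophage-like nuclei in the scopolamine and tamsulosin libraries. Thinned, 34.1%, 34.9% and 29.7% of T or NK-like nuclei had a Kcnq5 UMI, a smaller share than of myoepithelial-like nuclei at a like CPM. Kcnab2, a cytoplasmic Kv beta subunit, was at 33.4, 39.7 and 8.01 CPM in T or NK-like and 10.4, 20.4 and 13 CPM in macrophage-like nuclei. In acinar-like nuclei Kcnab2 stayed under 1 CPM.

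Fibroblast-like nuclei were marked by Kcnt2, a sodium-activated channel, at 267 (231 to 308), 178 (153 to 206) and 196 (168 to 227) CPM. This was 71.4-fold above all other nuclei, with 63.1% of the UMIs of Kcnt2. Kcnd2, a Kv4 subunit, was at 33.6, 15.7 and 45 CPM. It was lowest in the scopolamine library, from counts of 16 to 40 UMIs. Kcnc2, a Kv3 subunit, was at 2.80, 21.6 and 12.4 CPM in fibroblast-like nuclei and at 50.1 and 33.0 CPM (16 and 9 UMIs) in endothelial-like nuclei of the scopolamine and tamsulosin libraries. Kcnip1, a partner of Kv4 channels, had 11 UMIs (15.4 CPM) in control fibroblast-like nuclei and 1 UMI in each of the others, and 2, 3 and 5 UMIs in T or NK-like nuclei.

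Macrophage-like nuclei were marked by Kcnk13, the tandem-pore channel known from microglia. It was at 147 (121 to 177), 222 (195 to 251) and 180 (158 to 204) CPM, 70.9-fold above all other nuclei and with 68.2% of its UMIs. Thinned, 14.9%, 19.8% and 14.6% of macrophage-like nuclei had a Kcnk13 UMI, against 0.340%, 0.227% and 0.0413% of acinar-like nuclei. Kcnk13 therefore stood apart from the acinar-like share in each library. Kcnk6, another tandem-pore gene, was at 11.7, 19.5 and 23.9 CPM.

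**Figure D4:**
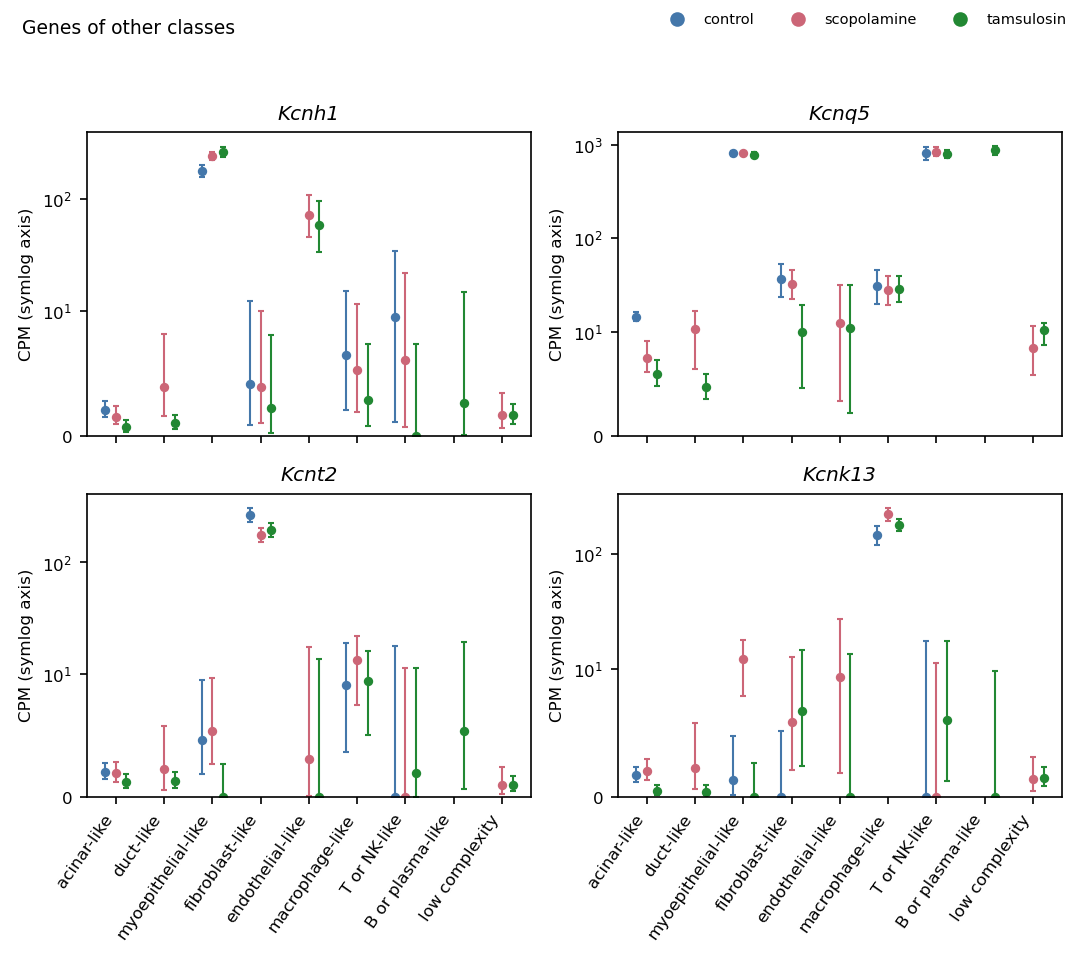
CPM of Kcnh1, Kcnq5, Kcnt2 and Kcnk13 by class and library for groups of at least 50 nuclei, with exact 95% Poisson intervals on an axis linear below 10 and logarithmic above. Kcnq5 sits between 777 and 870 CPM in myoepithelial-like, T or NK-like and B or plasma-like nuclei, while Kcnh1, Kcnt2 and Kcnk13 are highest in 1 class each.

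Endothelial-like and mural nuclei were few. In endothelial-like nuclei (32, 107 and 95) Kcnh1 was 4.46-fold above all other nuclei, at 72.1 (45.7 to 108) and 58.6 (33.5 to 95.2) CPM in the scopolamine and tamsulosin libraries. Kcnma1 and Kcnn2 were at ratios of 0.435 and 0.502 to the rest there. Pericyte or smooth muscle-like nuclei numbered 0, 14 and 1, and 1 member dominated them. Kcnab1 (chr3:65109384-65378223, plus strand), a cytoplasmic beta subunit that speeds inactivation of Kv channels, had 317 UMIs in 14 of 14 scopolamine nuclei, or 5600 (5000 to 6251) CPM, and 15 UMIs in the tamsulosin nucleus. This was 411-fold (363 to 463) above all other nuclei, so that 15 nuclei held 18.2% of its UMIs. Elsewhere Kcnab1 was low, at 6.59, 19 and 27.2 CPM in acinar-like nuclei, 9.80, 26.5 and 31.5 CPM in fibroblast-like and 5.20, 8.87 and 12.3 CPM in macrophage-like nuclei. In the same 15 nuclei Kcnma1 was at 1959 (1623 to 2344) CPM, 0.735 of the level in all other nuclei, and Kcnn4 and Kcnb2 had 0 UMIs, which allows up to 60.7 CPM. Abcc9, a subunit of the potassium channels closed by ATP, had 0 UMIs there and was at 21.0, 11.8 and 19.1 CPM in fibroblast-like nuclei.

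The comparison between the scopolamine and control libraries asks what changed in the dry eye model. A member was counted as higher or lower when its ratio was at least 1.5-fold with an interval beyond 1 and at least 30 UMIs in the library with the higher level. In acinar-like nuclei 10 of 22 members passed, against a background of 27.1% of all 12157 genes compared. Of these 10, 5 were higher (10.6% of all genes) and 5 lower (16.5%). After thinning to 1000 UMIs 5 members passed. Counts after thinning or under another setting, here and below, have no share over all genes in that setting beside them. They are therefore not read against the background. The median log2 ratio was -0.06 over the members and -0.20 over all genes. Higher were Kcnrg, at 1.32 and 8.51 CPM (6.46-fold, 4.24 to 10.2), Kcnj13, an inward rectifier of ion-transporting epithelia, at 2.49 and 12.1 CPM (4.85-fold, 3.54 to 6.75), Kcnab1 (2.89-fold, 2.34 to 3.58), Kcnn4 (2.36-fold, 2.16 to 2.57) and Kcnip4, a partner of Kv4 channels, at 3.06 and 6.20 CPM (2.03-fold, 1.45 to 2.85). Among the lower members were Kcnq1 (ratio 0.483, 0.354 to 0.649), Kcnq5 (0.519, 0.410 to 0.651), Kcnh8 (0.565, 0.326 to 0.944) and Kcns1 (0.635, 0.541 to 0.743).

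Kcnma1, Kcnn2 and Kcnb2 stayed under the 1.5-fold step. Kcnma1 had a ratio of 0.973 (0.962 to 0.984), Kcnn2 of 0.751 (0.732 to 0.769) and Kcnb2 of 1.01 (0.925 to 1.10). Kcnn4 was also higher in macrophage-like nuclei (2.32-fold, 1.39 to 4.03), whose summed erythroid markers were at 28.6 and 2339 CPM, fibroblast-like nuclei (4.49-fold, 2.29 to 9.81) and myoepithelial-like nuclei (2.31-fold, 1.49 to 3.68). The acinar marker sum was also higher in all 4 classes, going from 13050 to 22212 CPM in myoepithelial-like and from 8987 to 15578 CPM in fibroblast-like nuclei, and its part in the Kcnn4 result was not tested. Kcnrg was at 6.50 and 21.3 CPM in macrophage-like nuclei, so it too was higher in both classes. Kcnj13 had 2 and 7 UMIs in macrophage-like nuclei, too few to compare. For Kcnh8, 33 of 59 control UMIs came from cluster 40, of 83 control nuclei, and the largest acinar-like clusters were at 1.29 and 1.36 CPM. The direction of Kcnh8 turned under 4 of the alternatives. For Kcnq1, cluster 40 held 52 UMIs at 27.9 CPM, and the largest clusters were at 7.17 and 4.17 CPM.

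Kcnrg lies within the opposite-strand gene Dleu2, Kcnj13 within Gigyf2, and Kcnq1, Kcnip4, Kcnj15, Kcnh1 and Kcnh7 overlap Kcnq1ot1, 5730480H06Rik, Gm31641, Hhat and Gca. On the opposite strand of Kcnab1 (2075 UMIs) lie A330015K06Rik and A730090N16Rik, with 305 and 425 UMIs. Some other members overlap opposite-strand genes with fewer UMIs. The sources used here do not say how strand was used in counting, so the values of these members are uncertain.

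From scopolamine to tamsulosin, 3 of 18 members passed in acinar-like nuclei, against 9.69% of all genes (3.87% higher, 5.82% lower). The median log2 ratio was -0.10 over the members and -0.19 over all genes. Kcnj15 was at 1.57 and 3.66 CPM (2.33-fold, 1.39 to 4.07), beside 87.1 CPM in duct-like nuclei of the tamsulosin library, and its log2 ratio was -0.16 after thinning. After thinning 1 member passed. Kcns1 (0.624, 0.505 to 0.769) and Kcnd2 (0.479, 0.259 to 0.857) were lower. None of the 10 members that differed between scopolamine and control passed in the opposite direction here. Only 18 members were compared in this step, and over all genes only 3.87% passed higher and 5.82% lower. The absence of opposite calls is therefore not read as a result about the members. Kcns1 was lower in both comparisons, which share the scopolamine library. Kcnn4 (1.38-fold, 1.28 to 1.48) and Kcnab1 (1.43-fold, 1.22 to 1.68) stayed under the 1.5-fold step.

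**Figure D5:**
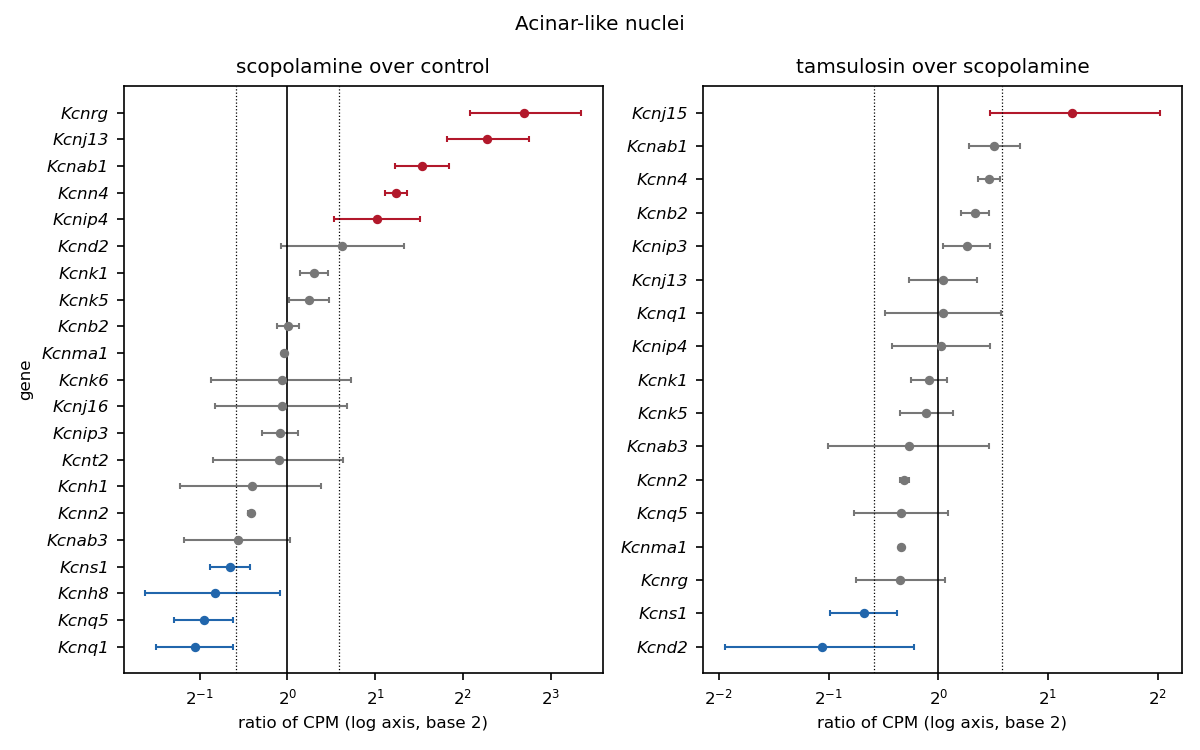
Ratio of CPM in acinar-like nuclei between scopolamine and control (left) and between tamsulosin and scopolamine (right) for members with enough UMIs, on a log axis, with exact 95% intervals and dotted lines at 1.5-fold either way. Red points are higher, blue points lower and grey points did not pass, with 5 higher and 4 lower drawn on the left and 1 higher and 2 lower on the right.

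Of the partner list, 7 of 25 genes passed from control to scopolamine in acinar-like nuclei, near the 27.1% of all genes. From scopolamine to tamsulosin 4 of 24 passed, against 9.69% of all genes. Lrrc26 (2.71-fold, 2.22 to 3.32) and Atp1b1 (1.53-fold, 1.10 to 2.12) were higher and Dpp6 (0.422, 0.231 to 0.729, but a log2 ratio of 1.04 with doublets kept) lower in scopolamine. Atp1b1 (3.76-fold, 2.92 to 4.90) and Slc12a2 (2.57-fold, 2.32 to 2.84, but a log2 ratio of -0.60 at 1600 UMIs) were higher in tamsulosin. At 1600 UMIs the largest scopolamine cluster went unnamed, so that value compares other nuclei. In macrophage-like nuclei of the same libraries Atp1b1 was 5.08-fold and Slc12a2 2.35-fold higher, and Slc12a2 was at 223 CPM in low-complexity barcodes of the tamsulosin library. Duct-like nuclei made up 6.05% of the scopolamine and 26.1% of the tamsulosin library, and the part of their RNA in these ratios was not tested.

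In myoepithelial-like nuclei 4 of 10 members passed from control to scopolamine, against 31.7% of all genes (5.31% higher, 26.4% lower). The median log2 ratio was 0.07 over the members and -0.34 over all genes. Kcnn4 and Kcnh8 (3.40-fold, 1.47 to 9.13) were higher, and Kcnb2 (0.397, 0.262 to 0.594) and Kcnn2 (0.505, 0.454 to 0.561) lower. From scopolamine to tamsulosin 6 of 10 passed, all lower, against 43.0% of all genes (3.84% higher, 39.1% lower). The median log2 ratio was -1.04 over the members and -0.53 over all genes. These were Kcnn2 (0.142, 0.106 to 0.187), Kcnma1 (0.248, 0.226 to 0.271), Kcnk5 (0.311, 0.140 to 0.622), Kcnh8 (0.326, 0.122 to 0.752), Kcnb2 (0.382, 0.170 to 0.780, but a log2 ratio of 0.030 with doublets kept) and Kcnip3 (0.621, 0.406 to 0.932). The members that mark the class did not pass, with Kcnq5 at 0.967 (0.894 to 1.04) and Kcnh1 at 1.09 (0.945 to 1.25). Both were lower, though by less than 1.5-fold, in main cluster 23 of tamsulosin against main cluster 24 of scopolamine. There Kcnq5 was at 0.710 (0.652 to 0.772) and Kcnh1 at 0.816 (0.702 to 0.947). Kcnma1 and Kcnn2 were lower in the same step in fibroblast-like and macrophage-like nuclei too. Without cluster 37, a choice made after seeing the data, 2 of 5 members passed from control to scopolamine and 3 of 6 from scopolamine to tamsulosin, and Kcnh8 had a log2 ratio of -1.41 and then 0.70, so its direction rests on that cluster.

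In fibroblast-like nuclei 2 of 6 members passed from control to scopolamine, against 22.3% of all genes (6.48% higher, 15.8% lower). Kcnn4 was higher and Kcnt2 lower (0.665, 0.539 to 0.819), and the median log2 ratio was -0.23 over the members and -0.20 over all genes. From scopolamine to tamsulosin 7 of 9 passed, against 41.3% of all genes (6.59% higher, 34.7% lower). The median log2 ratio was -0.87 over the members and -0.44 over all genes, and 2 members passed after thinning. Kcnd2 (2.86-fold, 1.57 to 5.48) was among the higher members, while Kcnn2 (0.211, 0.166 to 0.265), Kcnma1 (0.299, 0.273 to 0.328) and Kcnq5 (0.312, 0.132 to 0.668) led the lower members, with Kcnk1 (0.465) and Kcnb2 (0.547). Kcnt2 was at 1.10 (0.889 to 1.36). Most of these nuclei came from cluster 21 in the scopolamine and cluster 29 in the tamsulosin library.

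In macrophage-like nuclei 5 of 5 members passed from control to scopolamine, against 28.2% of all genes (6.95% higher, 21.3% lower). The median log2 ratio was -0.78 over the members and -0.19 over all genes, and 2 members passed after thinning. Kcnn4 and Kcnk13 (1.51-fold, 1.2 to 1.9) were higher, and Kcnn2 (0.421, 0.360 to 0.491), Kcnma1 (0.527, 0.489 to 0.568) and Kcnb2 (0.582, 0.342 to 0.984) lower. From scopolamine to tamsulosin 2 of 7 passed, against 27.9% of all genes (4.80% higher, 23.1% lower), with Kcnn2 at 0.370 (0.296 to 0.460) and Kcnma1 at 0.403 (0.365 to 0.444). Kcnk13 was at 0.812 (0.679 to 0.972). Of the members that passed in macrophage-like nuclei, Kcnk13 alone was higher there than in acinar-like nuclei. Dpp10, a partner of Kv4 channels, was at 11.7, 54.1 and 26.8 CPM in macrophage-like nuclei, while the Kv4 member Kcnd2 was at 3.90, 2.66 and 0.723 CPM there.

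The shallow nuclei left unnamed were also compared. They come from the same libraries and are no independent check, and both clusters had Hba-a1 and Hbb-bs among their top genes. Cluster 4 of the control library (2151 nuclei) and cluster 1 of the scopolamine library (3513 nuclei) held Kcnn4 at 24.1 and 57.9 CPM (2.40-fold, 1.88 to 3.09). Kcnma1 was at 3361 and 2106 CPM (0.627), Kcnn2 at 1047 and 501 CPM (0.479) and Kcns1 at 18.1 and 7.20 CPM (0.399) in the same clusters. Kcnn4 and Kcns1 thus went the same way as in acinar-like nuclei, and Kcnma1 was lower by more than it was there. Kcnb2, which was level in acinar-like nuclei, was lower here, at 76.4 and 43.0 CPM (0.562, 0.464 to 0.680).

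The remaining members were low. Kcnip2 stayed at or under 3.05 CPM, Kcnh7, an Erg-type channel, at or under 5.65 CPM, and Kcnip4 at or under 12.4 CPM outside macrophage-like nuclei (27.3, 11.5 and 7.95 CPM) in classes of at least 50 nuclei. Relative to all other nuclei, Kcnip4 was 2.83-fold higher in macrophage-like nuclei (2.04 to 3.84), and Kcnip2 2.08-fold (1.25 to 3.34) and Kcnh7 1.85-fold (1.22 to 2.75) higher in duct-like nuclei.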

How the data were processed

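Deposited values were raw UMI counts for every gene in every barcode, which the authors obtained using Cell Ranger 5.0.0 and mm10, per the submitters' processing notes. Further settings are not given in the sources used here. Members and lists were chosen with earlier results of these data known, and the rounds of clustering, the naming thresholds and the doublet score were set after seeing the data. Barcodes needed 500 UMIs, 300 genes and at most 5% mitochondrial UMIs; doublets (414, 801 and 1156) were removed with a score from simulated doublets at 0.8% per 1000 barcodes. Nuclei were clustered in 2 rounds (2000 variable genes without Kcn symbols, 30 components, 15 neighbours, Leiden resolution 2) with scanpy 1.11.5, scikit-learn 1.9.0 and igraph 0.11.9, using numpy 2.4.6, pandas 2.3.3 and scipy 1.17.1. UMIs were summed by class and library. With 1 library a group no test was made; ratio intervals were tested on simulated data. Some members and partners are not reported here. Others named with values were Kcnn4, Kcnma1, Kcnab1 and Kcnb2, the 3 leading members of each class and those that passed in a comparison; the rest are given by range. Alternatives were Leiden resolution 1, doublets kept, at least 1600 UMIs, thinning to 1000 UMIs, another total and a minimum of 10 UMIs. Nuclei of unnamed clusters entered no class.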

Additional observations from a re-analysis of the deposited data

How the results depend on the processing

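No paired analysis was possible because each group is 1 library. Over the named ratios and the alternatives, 284 of 374 values kept their direction within the counting interval, 73 moved and 17 reversed; the minimum of 10 UMIs, which cannot alter a ratio, is left out of this count. With nuclei thinned to 1000 UMIs, fewer members passed, and 17 of 59 ratios moved and 4 reversed: 5 passed in acinar-like and 2 each in myoepithelial-like and macrophage-like nuclei between scopolamine and control, and 1 in acinar-like and 2 each in myoepithelial-like and fibroblast-like nuclei between tamsulosin and scopolamine. With a minimum of 10 UMIs more members were compared, and 11, 9 and 8 passed in myoepithelial-like, fibroblast-like and macrophage-like nuclei between scopolamine and control and 6, 10 and 4 in acinar-like, myoepithelial-like and macrophage-like nuclei between tamsulosin and scopolamine. At Leiden resolution 1, 2 passed in myoepithelial-like and 1 in fibroblast-like nuclei between scopolamine and control. With doublets kept, 10 and 4 passed there, 1 passed in macrophage-like nuclei between tamsulosin and scopolamine, and 16 members kept 1 leading class in 3 libraries, against 14 at 1600 UMIs. In myoepithelial-like nuclei between tamsulosin and scopolamine 3 passed with a total without the 50 most abundant genes, 3 relative to the class median and 3 without cluster 37; without it 2 passed between scopolamine and control. The last pair of choices was made after seeing the data. Counts of members in this paragraph stand without the share over all genes in the same setting. More or fewer members passing is therefore not read as a result about the members. At 1600 UMIs the largest scopolamine cluster (1900 nuclei), which shares top genes with acinar-like cluster 6, went unnamed. The largest acinar-like groups of scopolamine nuclei were then of 288 and 154 nuclei. Acinar-like ratios at 1600 UMIs thus compare other nuclei and not depth alone. The cause was not tested for the following reversed log2 ratios. Between scopolamine and control, Kcnh8 in acinar-like nuclei was 0.10 at resolution 1, 2.09 with doublets kept, 0.25 at 1600 UMIs and 0.12 thinned, Dpp6 there was 1.04 with doublets kept, and Kcnh8 in myoepithelial-like nuclei was -1.37 at resolution 1 and -1.41 without cluster 37. Between tamsulosin and scopolamine, Kcnj15 in acinar-like nuclei was -0.16 thinned and Slc12a2 -0.60 at 1600 UMIs; in myoepithelial-like nuclei Kcnb2 was 0.030 with doublets kept, Kcnh8 0.68 at resolution 1 and 0.70 without cluster 37, and Ano1 0.022 at resolution 1 and 0.031 with doublets kept; Ano1 in fibroblast-like nuclei was 0.25 with doublets kept and 0.22 thinned, and Dpp10 in macrophage-like nuclei 0.63 thinned.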
